A study of Mus musculus with 12 samples.

Results

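Urothelium is the epithelium that lines the bladder and the rest of the urinary tract, and peeling strips it from the connective tissue, smooth muscle and vessels beneath. Here 10 genes were followed that mark those underlying cells, to ask which non-epithelial cells the peeled tissue carried in each library. The 10 genes were taken by symbol out of 23337 genes counted: Acta2, Tagln, Myh11, Cnn1 and Des for smooth muscle, Pdgfra and Pdgfrb for fibroblasts and mural cells, and Pecam1, Cdh5 and Kdr for endothelium. All 10 had counts in all 12 libraries and passed the filter on low counts at both times. The rule names them by symbol and uses no measured value.

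RNA came from 12 samples in 4 groups of 3. Mice were Stag2-WT or Stag2-KO, all of them ate a diet with TMX for 1 week, and they were killed either 1 week or 1 month after it began. Stag2 encodes part of cohesin, a ring-shaped complex that shapes chromatin loops. TMX is read here as tamoxifen. The allele, the driver of a recombinase, the cells in which Stag2 was inactivated, the strain, the sex and the age at the start are not given in the sources used here, so a stromal cell in a KO library may or may not have lost the gene. Nothing in the labels says that animals were pooled. Libraries were made with a kit that reads the 3′ end of polyadenylated RNA and keeps the strand. Values are therefore CPM, counts scaled to a fixed library total, with no correction for transcript length and with totals adjusted by the trimmed mean of M-values (TMM), and genes called the most abundant of a list are those with the highest mean CPM of such 3′ tags.

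Smooth muscle cells contract through actin and a muscle-specific myosin, and the genes of this apparatus are switched on together by serum response factor and its partner myocardin. Fibroblasts build the collagen matrix under the urothelium and carry the PDGF receptor alpha, while pericytes and vascular smooth muscle, which wrap small vessels, carry the PDGF receptor beta. Endothelial cells line those vessels and are held together by PECAM-1 and VE-cadherin, and they respond to VEGF through the receptor encoded by Kdr.

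Serum response factor binds a DNA element called the CArG box, and the stretches below show where that element was matched near the RefSeq start of the members, with the 10 bases of the match in capitals. RefSeq windows of 250 bases before to 50 after the start (GRCm38.p6) were at hand for 5 of the 10 genes: Acta2, Cnn1, Des, Pdgfra and Kdr. The search read both strands and allowed at most 1 mismatch, a rule that 21.1% of 32851 such windows meet, against 1.63% for an exact match. There were 2 matches in the Acta2 window and 1 in the Kdr window, each with 1 mismatch, and none in the other 3 windows.
Acta2, match from position -84, chr19:34255438-34255467, minus strand: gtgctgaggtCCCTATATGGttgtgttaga
Acta2, match from position -34, chr19:34255388-34255417, minus strand: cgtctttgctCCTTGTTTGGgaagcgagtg
Kdr, match from position -236, chr5:75978672-75978701, minus strand: gtctcagagcCCATTACTGGctacatttta
Positions count from the RefSeq start. Both Acta2 stretches lie inside what GENCODE M21 annotates as the untranslated first exon of a longer model. A gene that is no smooth muscle marker, Kdr, held a match of the same quality, and a match is a description of letters, not evidence of binding.

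Total counts ran from 5580961 to 9497088, so that 3 counts were worth 0.324 to 0.587 CPM. Stag2 itself was lower in every KO than in every WT library at each time (59.7 to 75.9 against 106 to 162 CPM at 1 week, and 19.8 to 38.4 against 46.2 to 60.1 at 1 month). At 1 week the 3 KO libraries held 6392 to 10406 counts of Xist, the RNA of the inactive X chromosome, and at most 4 counts of 4 Y-linked genes together, while the WT libraries held at most 13 Xist counts and at least 1360 Y-linked counts. Genotype and this difference cannot be told apart at 1 week. At 1 month KO replicate 3 held 7764 Xist counts and 0 Y-linked counts, and the other 5 libraries at most 28 and at least 632. Within batch 3, which holds that library, genotype and this difference cannot be told apart either. Every difference of the genotype effect between the times sets 3 such KO libraries at 1 week against 1 at 1 month. The labels put all libraries of 1 week in batch 1, replicates 1 and 2 of 1 month in batch 2 and both replicates 3 of 1 month in batch 3, so time and batch cannot be told apart and the levels of the groups are not compared between the times. Where a library is called the highest or lowest of all 12, that is a description of that library. The title and the library name of WT replicate 3 at 1 month carry different numbers, and it was matched by its library name. The labelled tissue was checked with a list of 19 urothelial genes, whose summed level ran from 16300 to 33800 CPM. Within that list KO replicate 3 at 1 week stood apart: Upk3a, a uroplakin, was at 159 CPM there against 1260 to 4330 CPM in the other 11 libraries, Upk1b at 133 CPM against 379 to 1170 CPM, and Krt14, a basal keratin, at 176 CPM against 43.4 CPM in KO replicate 2 and at most 3.24 CPM in the other 10. The chi-square per degree of freedom between its counts and those of the other KO libraries of 1 week was 128 and 185, against 55.8 between those 2.

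**Figure D1:**
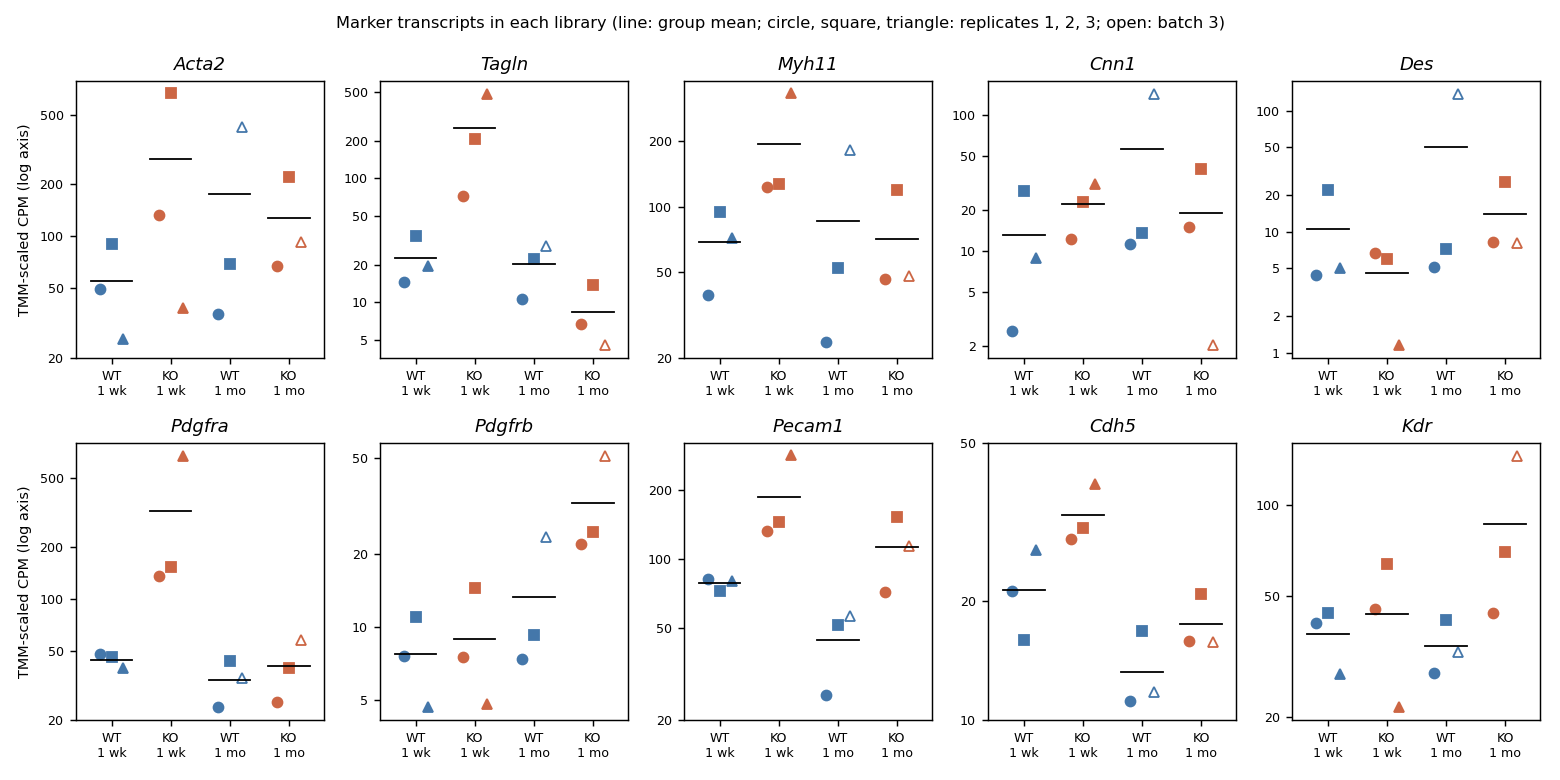
Each panel plots 1 gene, with TMM-scaled CPM on a log axis and the 4 groups on the x axis. Points are single libraries (blue WT, red KO, open symbols batch 3) and lines are group means. Tagln, Pdgfra and Pecam1 lie higher in the 3 KO libraries of 1 week than in the 3 WT libraries, and Cnn1 and Des each have 1 far point, WT replicate 3 at 1 month, at 144 and 139 CPM.

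At 1 week the members were mostly higher in KO libraries, but unevenly. Of the 10 genes, 9 had a log2 fold change above 0, and the median of the 10 was 1.07 against 0.02 over all 12754 genes tested. In 5 of them (Tagln, Myh11, Pdgfra, Pecam1 and Cdh5) every KO library was above every WT library, which was true of 12.4% of all genes tested. None passed an adjusted p of 0.05 in edgeR's quasi-likelihood test (Benjamini-Hochberg over all genes), which called 0.0627% of all genes and 0.0157% as higher in KO, and 5 members had an unadjusted p under 0.05. DESeq2 on the same counts called 3 members higher (Pdgfra, Pecam1 and Tagln), where it called 7.5% of all genes in either direction and 5.39% higher in KO. In simulated counts for this comparison edgeR recovered 41 of 200 genes changed 4-fold. In bulk tissue a larger number of cells of a type and more RNA per cell cannot be told apart, here and in all that follows.

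Tagln encodes transgelin (SM22 alpha), an actin-binding protein of smooth muscle that myofibroblasts also make. The gene lies on chromosome 9 (45929619 to 45936058, minus strand; GRCm38, GENCODE M21, as for all members). At 1 week WT replicates 1, 2 and 3 held 14.6, 34.3 and 19.6 CPM, and the KO replicates 72.6, 207 and 482 CPM. The groups did not overlap, and the lowest KO library was above the highest WT library by more than the whole WT range. The means were 22.8 ± 10.2 and 254 ± 209 CPM (SD, n = 3 each), or 3.55 on the log2 scale in the fit (SE 0.75, edgeR adjusted p = 0.115). Without KO replicate 3 the log2 fold change was 2.62 and passed (edgeR adjusted p = 0.0485), in a comparison of 3 libraries with 2 that called 1.68% of all genes higher in KO. At 1 month the direction was the other: WT libraries held 10.8, 22.2 and 28.4 CPM and KO libraries 6.73, 13.7 and 4.53 CPM. KO replicate 2 lay between the WT libraries, and the log2 fold change of -1.36 (SE 0.46) did not pass in edgeR (adjusted p = 0.125), though it did in DESeq2 (adjusted p = 0.0399). The difference between the effects of both times, tested in a fit of all 12 libraries, was -4.90 (SE 0.98, edgeR adjusted p = 0.0879).

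Acta2 encodes alpha smooth muscle actin, the actin of contractile smooth muscle and of myofibroblasts (chromosome 19, 34241090 to 34255590, minus strand). WT libraries of 1 week held 49.6, 90.5 and 25.7 CPM and KO libraries 132, 662 and 38.7 CPM. A single library, KO replicate 2, was far above the others, and KO replicate 3 lay within the WT range, although Tagln was highest there. The log2 fold change was 2.36 (SE 0.99, edgeR adjusted p = 0.315), and 0.61 without KO replicate 2. The WT libraries at 1 month held 35.6, 68.9 and 422 CPM and KO libraries 67.4, 219 and 92.3 CPM. The high library was now a WT one, replicate 3, and the groups overlapped throughout (log2 fold change 0.29, SE 1.21, edgeR adjusted p = 0.914). Coding sequences of the actin genes are nearly identical, and how reads that match several of them were counted is not given in the sources used here.

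Myh11 encodes the heavy chain of smooth muscle myosin, a marker of mature smooth muscle (chromosome 16, 14194535 to 14291372, minus strand). At 1 week WT libraries held 39.0, 94.8 and 71.3 CPM and KO libraries 124, 127 and 334 CPM. The groups did not overlap, with KO replicate 3 highest, and the log2 fold change of 1.58 (SE 0.53) did not pass (edgeR adjusted p = 0.233) and was 0.86 without that library. At 1 month WT libraries held 23.7, 51.7 and 182 CPM and KO libraries 46.5, 119 and 47.8 CPM. As for Acta2, WT replicate 3 was the highest of the 6, and the log2 fold change was 0.11 (SE 0.96, edgeR adjusted p = 0.960).

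Cnn1 encodes calponin, which binds actin and restrains the myosin motor in differentiated smooth muscle (chromosome 9, 22099216 to 22109630, plus strand). WT libraries of 1 week held 2.58, 27.6 and 8.92 CPM and KO libraries 12.3, 23.0 and 31.0 CPM, which overlapped (log2 fold change 0.81, SE 0.80, edgeR adjusted p = 0.637; 2.03 without WT replicate 2). The WT libraries at 1 month held 11.3, 13.6 and 144 CPM and KO libraries 15.0, 40.3 and 2.03 CPM. Batch 3 held both the highest and the lowest Cnn1 level of the 6 libraries of 1 month (log2 fold change -0.58, SE 2.04, edgeR adjusted p = 0.897).

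Des encodes desmin, the intermediate filament of all muscle types (chromosome 1, 75360329 to 75368579, plus strand). It was the member with a log2 fold change below 0 at 1 week. There WT libraries held 4.42, 22.0 and 5.01 CPM and KO libraries 6.73, 5.93 and 1.16 CPM. KO replicate 3, where Tagln and Myh11 were highest, had the lowest Des of the series, at 6 counts (log2 fold change -1.14, SE 0.83, edgeR adjusted p = 0.531; 0.04 without WT replicate 2). At 1 month WT libraries held 5.08, 7.17 and 139 CPM and KO libraries 8.23, 26.0 and 8.12 CPM, again with WT replicate 3 far above all others (log2 fold change -0.30, SE 1.74, edgeR adjusted p = 0.941).

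The 5 smooth muscle genes therefore had different high libraries at 1 week, while at 1 month WT replicate 3 was the highest library for all 5. Their summed level at 1 week was 110, 269 and 130 CPM in WT and 347, 1020 and 887 CPM in KO libraries, which did not overlap; the log2 ratio of the means was 2.15, and 2.01 without KO replicate 3. Acta2 made most of the sum in KO replicate 2 and Tagln most of it in KO replicate 3. At 1 month the sum was 86.4, 164 and 915 CPM in WT and 144, 418 and 155 CPM in KO libraries, a log2 ratio of -0.70 that rests on WT replicate 3. Without that library it was 0.93. Within batch 2 it was 1.17 (2 libraries against 2) and within batch 3 it was -2.56 (1 against 1), so the batches went opposite ways.

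Striated muscle genes were measured to see whether the high Des of WT replicate 3 at 1 month came with other muscle RNA. Of 9 such genes, 5 had at most 3 counts in every library. Acta1, the skeletal muscle actin, reached 14.5 CPM in that library and at most 2.75 CPM in the other 11. The summed list was 18.1 CPM there and 1.96 to 6.65 CPM elsewhere. Tnnt3, a troponin of fast muscle fibres, was at 3.35 CPM there, within its range elsewhere. Actg2, the gamma actin of visceral smooth muscle, was at 33.5 CPM there, against 42.9 CPM in KO replicate 2 at 1 week and at most 14.7 CPM in the other 10. The part of these muscle transcripts in the smooth muscle results at 1 month was not tested.

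Ratios between members show the same unevenness without any scaling of libraries. The ratio of Tagln to Des counts at 1 week was 3.31, 1.56 and 3.91 in WT libraries and 10.8, 34.8 and 418 in KO libraries, the last with 6 Des counts. The groups did not overlap. At 1 month it was 2.12, 3.10 and 0.204 in WT libraries and 0.818, 0.528 and 0.558 in KO libraries, so that replicates 1 and 2 of WT were above all KO libraries and replicate 3 below. The ratio of Acta2 to Tagln counts was 1.31 to 3.39 in 5 of the 6 libraries of 1 week and 0.0802 in KO replicate 3. At 1 month it was 3.31 and 3.10 in WT replicates 1 and 2, 14.9 in WT replicate 3 and up to 20.4 in the KO libraries. KO replicates 2 and 3 of 1 week, each rich in some smooth muscle transcripts, were thus not rich in all 5. WT replicate 3 was the highest library of 1 month for all 5, but by unlike margins. Tagln was at 28.4 CPM there against 22.2 CPM in the next library, and Des at 139 CPM against 26.0 CPM.

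**Figure D2:**
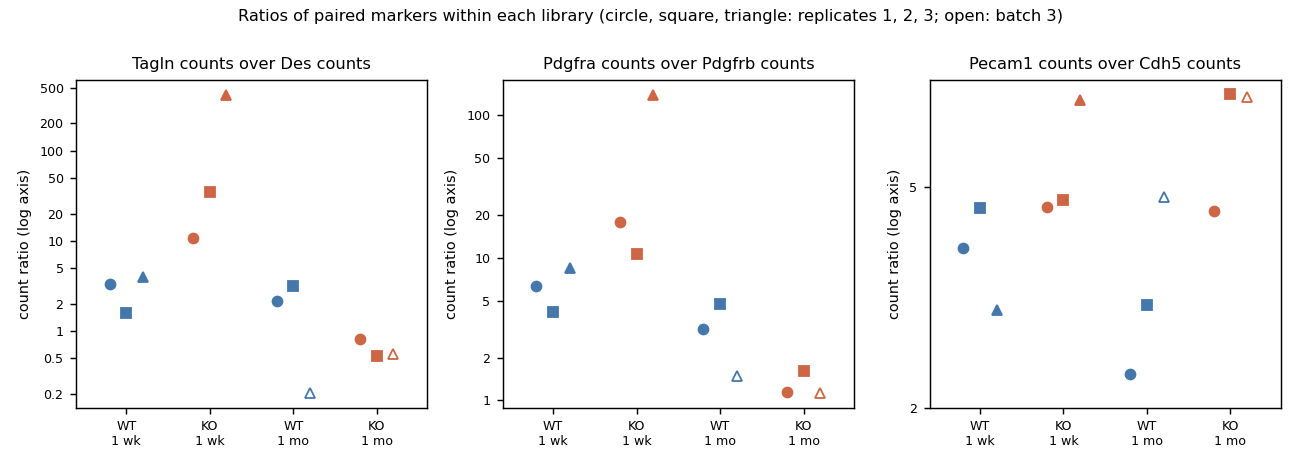
Count ratios within each library on log axes, for Tagln over Des, Pdgfra over Pdgfrb and Pecam1 over Cdh5, with the 4 groups on the x axis; blue is WT, red KO, and open symbols batch 3. In the first 2 panels the KO libraries of 1 week lie above the WT libraries, up to 418 and 140 in replicate 3, and the KO libraries of 1 month lie between 0.528 and 1.62.

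Pdgfra encodes the PDGF receptor alpha, a tyrosine kinase of fibroblasts that binds PDGF ligands (chromosome 5, 75152292 to 75198215, plus strand). At 1 week WT libraries held 48.0, 45.9 and 39.7 CPM and KO libraries 136, 154 and 675 CPM. The WT libraries lay close together, and the lowest KO library was above them by more than their whole range. The means were 44.5 ± 4.29 and 322 ± 306 CPM (SD, n = 3 each), or 2.93 on the log2 scale in the fit (SE 0.68, edgeR adjusted p = 0.137). Without KO replicate 3 the log2 fold change was 1.70 and passed (edgeR adjusted p = 0.0152). WT libraries of 1 month held 23.7, 43.7 and 34.8 CPM and KO libraries 25.4, 39.9 and 57.6 CPM, which overlapped (log2 fold change 0.16, SE 0.29, edgeR adjusted p = 0.779). The difference between both times was -2.76 (SE 0.80) and did not pass in edgeR (adjusted p = 0.132), though it did in DESeq2 (adjusted p = 0.0168).

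Pdgfrb encodes the PDGF receptor beta of pericytes, vascular smooth muscle and many fibroblasts (chromosome 18, 61045150 to 61085061, plus strand). At 1 month WT libraries held 7.43, 9.26 and 23.5 CPM and KO libraries 22.1, 24.7 and 51.0 CPM. Pooled, the groups overlapped by 1 library, because both batch 3 libraries were high; within each batch every KO library was above every WT library. It rose in KO by 1.30 on the log2 scale (SE 0.24, edgeR adjusted p = 0.0218), and it was the 1 member of 10 that passed, where 2.22% of all 12139 genes passed and 0.997% passed as higher in KO. Batch 2 alone gave 1.43 (edgeR adjusted p = 0.00903), in 2 WT and 2 KO libraries with at most 28 Xist counts each, a comparison that called 7.68% of all genes higher in KO. Without batch in the model the change was 1.23 and did not pass (adjusted p = 0.637), nor did it pass when any 1 library of batch 2 was left out (adjusted p 0.0505 to 0.102). The WT libraries at 1 week held 7.61, 11 and 4.68 CPM and KO libraries 7.54, 14.5 and 4.82 CPM, almost the same range (log2 fold change 0.26, SE 0.54, edgeR adjusted p = 0.832). The difference between both times was 1.06 (SE 0.60) and did not pass (edgeR adjusted p = 0.330).

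Pdgfra was thus above WT in every KO library at 1 week, and Pdgfrb passed as higher at 1 month. The difference between the times passed for neither receptor in edgeR. The ratio of Pdgfra to Pdgfrb counts at 1 week was 6.31, 4.17 and 8.49 in WT libraries and 18.0, 10.6 and 140 in KO libraries. At 1 month it was 3.18, 4.72 and 1.48 in WT libraries and 1.15, 1.62 and 1.13 in KO libraries. KO libraries were above WT libraries at 1 week without overlap, and at 1 month KO replicate 2 was above WT replicate 3. The sum of both receptors at 1 week was 55.6, 56.9 and 44.4 CPM in WT and 144, 168 and 680 CPM in KO libraries, without overlap. The log2 ratio of the means was 2.66, and 1.58 without KO replicate 3.

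Pecam1 encodes PECAM-1 (CD31), an adhesion molecule at endothelial junctions that platelets and some leukocytes also carry (chromosome 11, 106654217 to 106750628, minus strand). At 1 week WT libraries held 82.0, 73.0 and 80.4 CPM and KO libraries 132, 145 and 284 CPM. WT libraries of 1 month held 25.6, 51.6 and 56.4 CPM and KO libraries 71.7, 153 and 115 CPM. It was the member whose KO libraries were above all WT libraries at both times. The log2 fold change was 1.33 at 1 week (SE 0.37, edgeR adjusted p = 0.172) and 1.31 at 1 month (SE 0.33, edgeR adjusted p = 0.0620), and neither passed in edgeR. DESeq2 called both (adjusted p = 0.0350 and 0.00310). The difference between both times was 0.00 (SE 0.50, edgeR adjusted p = 0.999). Without KO replicate 3 the value at 1 week was 0.82 (edgeR adjusted p = 0.0652), and batch 2 alone gave 1.48 at 1 month (edgeR adjusted p = 0.0526).

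Cdh5 encodes VE-cadherin, the cadherin of endothelial junctions, and was the steadiest member, with 11.1 to 39.5 CPM over the 12 libraries (chromosome 8, 104101625 to 104144511, plus strand). The WT libraries at 1 week held 21.1, 15.9 and 26.8 CPM and KO libraries 28.7, 30.5 and 39.5 CPM, which did not overlap (log2 fold change 0.70, SE 0.31, edgeR adjusted p = 0.340). At 1 month WT libraries held 11.1, 16.8 and 11.7 CPM and KO libraries 15.8, 20.7 and 15.8 CPM. WT replicate 2 lay within the KO range, and the log2 fold change was 0.35 (SE 0.27, edgeR adjusted p = 0.480).

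Kdr encodes VEGF receptor 2, the main receptor through which VEGF drives endothelial growth (chromosome 5, 75932827 to 75978458, minus strand). WT libraries of 1 month held 28.0, 41.8 and 32.8 CPM and KO libraries 44.0, 69.7 and 145 CPM. The groups did not overlap, which 6.88% of all genes tested showed in this direction, and 2 of the 10 members, Kdr and Pecam1, did. The log2 fold change was 1.13 (SE 0.32, edgeR adjusted p = 0.0843), and in batch 2 alone it was 0.65 (edgeR adjusted p = 0.150); KO replicate 3 of batch 3, the Xist library, was the highest. At 1 week WT libraries held 40.9, 44.0 and 27.8 CPM and KO libraries 45.4, 63.9 and 21.6 CPM, with the lowest Kdr of the series in KO replicate 3, the library with the highest Pecam1 and Cdh5 (log2 fold change 0.26, SE 0.43, edgeR adjusted p = 0.779).

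Summed, the 3 endothelial genes were at 144, 133 and 135 CPM in WT and 206, 239 and 345 CPM in KO libraries at 1 week, and at 64.7, 110 and 101 CPM in WT and 132, 244 and 275 CPM in KO libraries at 1 month. KO was above WT without overlap at both times. The log2 ratio of the means was 0.94 at 1 week and 1.24 at 1 month. Within batch 2 it was 1.10, and within batch 3 it was 1.45 (1 library against 1, with the KO library rich in Xist). No p is given for such a sum. The ratio of Kdr to Cdh5 counts was 0.546 in KO replicate 3 at 1 week and 9.19 in KO replicate 3 at 1 month, against 1.04 to 3.36 in the other 10 libraries. The ratio of Pecam1 to Cdh5 was 3.00 to 4.75 in 5 libraries of 1 week and 7.19 in KO replicate 3. At 1 month it was 2.30, 3.07 and 4.81 in WT libraries and 4.53, 7.38 and 7.27 in KO libraries, which overlapped.

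**Figure D3:**
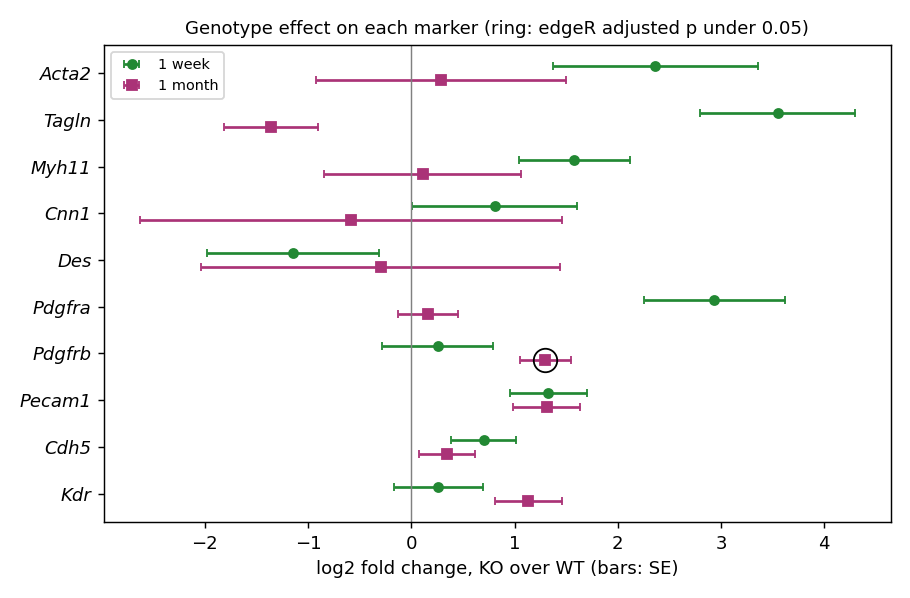
The log2 fold change of KO over WT on the x axis for each member, from edgeR's fits, at 1 week (green circles) and 1 month (purple squares), with bars of 1 SE. The ring marks Pdgfrb at 1 month, at 1.30 with adjusted p = 0.0218; Pecam1 lies at 1.33 and 1.31, and the bars of Cnn1 and Des at 1 month span more than 3 units.

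At 1 month as a whole, 7 of the 10 members had a log2 fold change above 0, with a median of 0.23 against -0.01 over all genes, and 4 had an unadjusted p under 0.05. DESeq2 called 4 members (Kdr, Pdgfrb and Pecam1 higher, Tagln lower), where it called 6.43% of all genes in either direction and 3.69% higher in KO. In simulated counts for this comparison edgeR recovered 184 of 200 genes changed 4-fold. The difference of the genotype effect between the times passed for 0 of 10 members in edgeR, as for 0.0% of all 13122 genes, with 2 members at an unadjusted p under 0.05 (Tagln and Pdgfra, which are also the 2 that DESeq2 called, with 6.99% of all genes in either direction and 2.32% as higher in KO). In the simulated counts edgeR recovered 4 of 200 such differences, so that it could miss most differences of this size.

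Other genes of the same cell types were read from lists of their own, which were written with earlier results of these data known. Beside the calls in these and later lists, edgeR called 121 of all 12139 genes higher and 148 lower in KO at 1 month. At 1 week it called 2 of 12754 higher and 6 lower. Of 14 further smooth muscle genes, 13 were tested at 1 week, 12 of them with a log2 fold change above 0 (median 1.41) and 0 passed. The 2 with the highest levels were Mylk, the kinase that activates smooth muscle myosin, and Cald1, caldesmon. Cald1 was at 136, 125 and 90.3 CPM in WT and 291, 531 and 1180 CPM in KO libraries at 1 week (log2 fold change 2.59, edgeR adjusted p = 0.120). Mylk, which epithelial cells also use, was at 279, 296 and 361 CPM in WT and 482, 444 and 178 CPM in KO libraries, lowest in KO replicate 3. At 1 month 1 of 12 had a log2 fold change above 0, with a median of -0.23, and 2 fell: Smtn, smoothelin, by 0.99 on the log2 scale (edgeR adjusted p = 0.0272) and Csrp1, a LIM-domain protein found in smooth muscle and other cells, by 1.09 (edgeR adjusted p = 0.0284). Both were lower in each KO than in each WT library, which 6.44% of all genes tested showed. Smtn was at 92.5, 83.4 and 57.0 CPM in WT and 43.5, 47.7 and 30.0 CPM in KO libraries. WT replicate 3, the highest library of 1 month for all 5 smooth muscle members, thus held the least Smtn of the WT libraries.

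Of 14 further fibroblast genes, all tested, 13 had a log2 fold change above 0 at 1 week (median 0.88, 0 passed) and 5 at 1 month (median -0.10). Their summed level overlapped at 1 week, at 3900 to 5880 CPM in WT and 4830 to 10400 CPM in KO libraries. The most abundant were Col1a1, a chain of type I collagen, and Dcn, the matrix proteoglycan decorin. Col1a1 was at 890, 1070 and 653 CPM in WT and 2900, 2590 and 1240 CPM in KO libraries at 1 week (log2 fold change 1.41, edgeR adjusted p = 0.182). At 1 month it was at 7490, 7310 and 3610 CPM in WT and 4650, 3250 and 3400 CPM in KO libraries (log2 fold change -0.68, edgeR adjusted p = 0.204). Dcn did not follow: its 1 week means were 1770 ± 320 and 1840 ± 718 CPM (SD, n = 3 each, edgeR adjusted p = 0.909). KO replicate 3, the library with the highest Pdgfra, had the lowest Dcn of 1 week, at 1110 CPM. Col6a3, a chain of type VI collagen, rose at 1 month by 1.09 on the log2 scale (edgeR adjusted p = 0.0379), from 38.1, 66.2 and 176 CPM in WT to 123, 139 and 304 CPM in KO libraries. It resembled Pdgfrb in having both batch 3 libraries highest in their groups.

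Of 7 further pericyte genes, 5 had a log2 fold change above 0 at 1 week (median 1.16, 0 passed) and 6 at 1 month (median 0.34). Kcnj8, a potassium channel subunit of pericytes, rose at 1 month by 2.08 on the log2 scale (edgeR adjusted p = 0.0302), from 1.37, 1.05 and 5.34 CPM in WT to 7.23, 9.64 and 12.6 CPM in KO libraries, without overlap; without WT replicate 3 the change was 2.73. Rgs5, a regulator of G-protein signalling and the most abundant of the list, went the other way with no call (means 118 ± 57.5 and 82.4 ± 34.0 CPM, SD, n = 3 each; edgeR adjusted p = 0.449). Cspg4, the NG2 proteoglycan, had its highest level in KO replicate 3 at 1 week, at 273 CPM against 6.50 to 26.3 CPM in the other 11 libraries. Rgs5 had its lowest level there, at 28.5 CPM against 56.9 to 370 CPM elsewhere, as did Notch3, at 2.31 against 12.7 to 32.6 CPM. The summed pericyte list overlapped at 1 week, at 173 to 314 CPM in WT and 149 to 439 CPM in KO libraries.

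Of 12 further blood endothelial genes tested, all 12 had a log2 fold change above 0 at 1 week (median 1.07, 0 passed) and 8 at 1 month (median 0.22). Ptprb, an endothelial phosphatase, was at 82.1, 79.7 and 83.3 CPM in WT and 127, 114 and 341 CPM in KO libraries at 1 week (edgeR adjusted p = 0.252). Egfl7, a secreted endothelial protein, was at 46.9, 33.6 and 36.8 CPM in WT and 105, 78.0 and 62.0 CPM in KO libraries (edgeR adjusted p = 0.160). Plvap, which forms the diaphragms of fenestrated capillaries, rose at 1 month by 1.30 on the log2 scale (edgeR adjusted p = 0.0302), from 11.5, 22.0 and 33.4 CPM in WT to 44.9, 52.8 and 66.5 CPM in KO libraries, without overlap. Ptprb and Egfl7 had log2 fold changes of 0.05 and 0.17 at 1 month (edgeR adjusted p = 0.923 and 0.676). The summed list overlapped at 1 month, at 469 to 623 CPM in WT and 620 to 720 CPM in KO libraries. It did not overlap at 1 week, at 321 to 373 CPM in WT and 601 to 1010 CPM in KO libraries. The lymphatic markers Lyve1 and Flt4 were tested and 0 passed: Flt4, VEGF receptor 3, was at 2.45 to 3.33 CPM in WT and 4.10 to 13.1 CPM in KO libraries at 1 week, and at 3.13 to 5.18 and 7.48 to 10.1 CPM at 1 month. Lyve1, which some macrophages also carry, was at 9.33, 6.08 and 4.14 CPM in WT and 4.31, 22.1 and 42.8 CPM in KO libraries at 1 week. The called genes Smtn, Csrp1, Col6a3, Kcnj8 and Plvap, like Pdgfrb, were each lost when any 1 library of batch 2 was left out (adjusted p 0.0557 to 0.152).

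**Figure D4:**
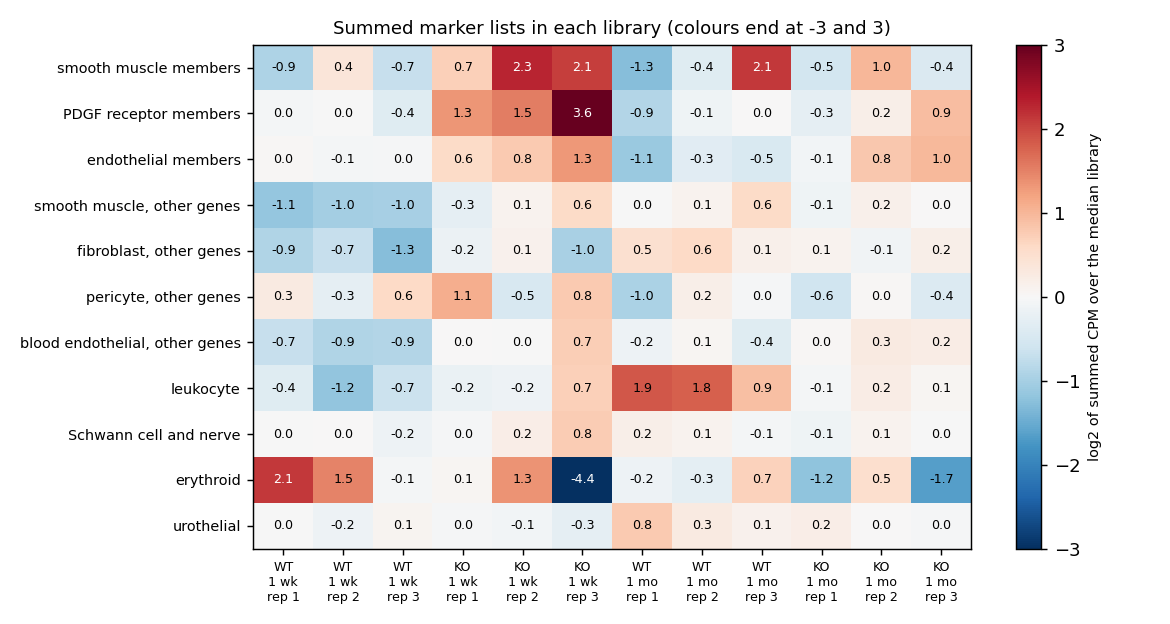
Rows are summed marker lists, columns the 12 libraries, and each cell gives the log2 of the summed CPM over the median library, with colours that end at -3 and 3. KO replicate 3 at 1 week stands at 3.56 for the PDGF receptors and at -4.43 for erythroid genes, and WT replicate 3 at 1 month at 2.12 for the smooth muscle members.

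Genes of other cells moved between libraries too. Of 9 leukocyte genes tested at 1 week 8 had a log2 fold change above 0 (median 0.77, 0 passed), and of 9 at 1 month 0 did (median -1.08) and 3 fell. These were Cd74, the invariant chain of antigen presentation, by 1.76 on the log2 scale (edgeR adjusted p = 0.00344), Csf1r, the receptor that keeps macrophages alive, by 1.13 (edgeR adjusted p = 0.0429), and C1qa, a complement subunit made by macrophages, by 1.95 (edgeR adjusted p = 0.0121). Of all 12139 genes tested at 1 month, 148 passed as lower in KO. The summed leukocyte list was at 677 to 1320 CPM in WT and 349 to 425 CPM in KO libraries at 1 month. Csf1r lost its call when any 1 library of batch 2 was left out (adjusted p 0.119 to 0.177), and C1qa without KO replicate 1 or 2 (0.0733 and 0.0676). The KO libraries of 1 month, where Pecam1, Kdr and Pdgfrb had the higher means, thus had the lower leukocyte list, and its part in their results was not tested.

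Erythroid RNA, a trace of blood, was read from Beta-s, a beta globin, and Alas2. Their list summed to 7.51 CPM in KO replicate 3 at 1 week and to 51.0 to 700 CPM in the other 11 libraries. That library, with the highest level of 5 members (Tagln, Myh11, Pdgfra, Pecam1 and Cdh5), was therefore the poorest in globin, and it had the highest leukocyte, Schwann cell and blood endothelial sums of 1 week (601, 181 and 1010 CPM). The Schwann cell list was led by Mbp, a myelin protein also made in other cells, at 80.7 to 131 CPM, and by S100b, which was at 2.29 to 3.07 CPM in WT and 11.3 to 39.7 CPM in KO libraries at 1 week (edgeR adjusted p = 0.0937).

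Adipocyte genes were near 0 but for KO replicate 1 at 1 month, where Cfd, adipsin, was at 58.0 CPM and Adipoq, adiponectin, at 6.61 CPM, against at most 7.52 and 0.524 CPM in the other 11 libraries. The members were not high there, with a summed smooth muscle level of 144 CPM. Of the 4 mesothelial genes, Upk3b was measured well, at 6.71 to 178 CPM, but umbrella cells of the urothelium make it as well. Of the urothelial genes, the uroplakin Upk1a and the basal keratin Krt15 were the most abundant, and Krt20, a keratin of umbrella cells, fell in KO at 1 month by 1.75 on the log2 scale (edgeR adjusted p = 0.00601).

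Expressed as a share of the summed urothelial list, which is another way to scale a library, the 3 classes went the same way as in CPM. That list was at 21400 to 33800 CPM in WT and 19100 to 22400 CPM in KO libraries at 1 month. It was lowest of the series, at 16300 CPM, in KO replicate 3 at 1 week. A lower urothelial level makes every share of a library larger. The log2 ratio of KO over WT for the smooth muscle, PDGF receptor and endothelial sums was 2.23, 2.82 and 1.06 at 1 week and -0.54, 0.92 and 1.53 at 1 month. Single libraries carried some of these values. Without KO replicate 3 the 3 values of 1 week were 2.01, 1.60 and 0.73, and without WT replicate 3 those of 1 month were 1.33, 1.23 and 1.73, the smooth muscle value with its sign turned (alternatives chosen after seeing the data). The PDGF receptor sum at 1 week was 0.286, 0.325 and 0.214% of the urothelial sum in WT and 0.753, 0.911 and 4.18% in KO libraries, which did not overlap. The smooth muscle sum at 1 month was 0.256, 0.693 and 4.28% in WT and 0.643, 2.13 and 0.810% in KO libraries.

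Finally, genes whose profile over the 12 libraries was closest to the mean profile of each class were sought among 11909 genes tested at both times, as the smallest root-mean-square difference of centred log2 CPM. For smooth muscle they were Nt5e (0.48), Cacnb2 and Ism1 (0.67 each), where the 5 members lay at 0.62 to 1.49 from their own mean and the median gene at 1.24. For the PDGF receptors they were Loxl2 (0.25), Fgd5 and Svep1 (0.27 each), where each receptor lay at 0.94 and the median gene at 0.95. For the endothelial genes they were Fli1 (0.27), Tcf4 and E330016A19Rik (0.28 each), where the members lay at 0.37 to 0.62 and the median gene at 0.83. The 3 endothelial genes were thus closer to their own mean than the 5 smooth muscle genes to theirs, and the mean of the pair of receptors described neither. Each mean includes the genes set against it, which draws the genes of a small class nearer to it. The mean profiles also differed in size, with a root mean square of 0.52 for endothelial and 1.04 for smooth muscle genes. How far these explain the contrast was not tested. These distances are descriptions over 12 libraries that differ in time, batch and depth, and the part of these in the profiles was not tested.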

How the data were processed

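RNA of peeled mouse urothelium was measured in 12 libraries. The unit of both deposited tables is raw counts per gene and library; per the submitters' processing notes Bowtie, TopHat, HTSeq and DESeq2 were used with build mm10, and per the labels' protocols HTSeq's strand-aware setting fits the kit. The gene annotation and tool versions are not given in the sources used here. The labels' genotype and time give the groups; replicate numbers follow accession order and pair nothing. All value columns were assigned (0 left over).

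The test was edgeR's quasi-likelihood test (4.0.16, R 4.3.3, robust), two-sided, on the counts, with TMM scaling, the default filter on low counts and Benjamini-Hochberg adjustment over all genes tested at 0.05. It was fitted on 6 libraries at each time, with batch as a covariate at 1 month, and on all 12 with the batch 3 term for the difference between the times. The SE is the absolute log2 fold change over the square root of F. CPM were scaled by TMM over all 12 libraries, and 2 was the prior count of log2 CPM. DESeq2 1.42.0, other scaling, other filters, no batch term and leaving out each library were alternatives. Nothing in the labels ties the libraries of a group to separate litters or cages, so p-values measure the spread between these samples. Steps were tested on simulated data with 200 genes changed 4-fold. The floor of 3 counts covers counting error only.

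The members and all marker lists were chosen with earlier results of these data known. Named are the 10 members, the 2 most abundant genes of each other list and each list gene that passed. The 3 genes nearest to each class are named too. Actg2, Notch3, Upk3a, Upk1b and Krt14 were named after their values were seen. Coordinates are from GENCODE M21 and sequences from RefSeq (GRCm38.p6).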

Additional observations from a re-analysis of the deposited data

Results flagged for a closer look

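Genes C1qa and Csf1r of the leukocyte list and its summed level were higher in every KO than in every WT library at 1 week and lower in every KO library at 1 month. Of all genes tested, 12.4% were higher in every KO library at 1 week and 6.44% lower in every KO library at 1 month. These items were picked from the same data by that turn, so the turn is no separate result. C1qa differed between the times by -3.97 on the log2 scale (SE 0.69, edgeR adjusted p = 0.0879) and Csf1r by -2.69 (SE 0.57, edgeR adjusted p = 0.0990), and neither passed. At 1 week alone neither gene passed (edgeR adjusted p = 0.144 and 0.172), and at 1 month both did (0.0121 and 0.0429). The summed leukocyte list differed by -2.37, which was not tested. Time and batch cannot be told apart in any of these values. The KO libraries of 1 week all differed from WT in Xist and Y-linked counts, and at 1 month only KO replicate 3 did. The part of this in the differences between the times was not tested.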

How the results depend on the processing

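No paired analysis was possible because replicate numbers follow accession order and pair no animals. Genes called at 1 week were 8, against 62 with no filter on low counts, 957 with DESeq2 and 1172 with DESeq2 without KO replicate 3 (an alternative chosen after seeing the data); leaving out 1 library gave 0 to 320. Members called there were 0, against 3 with DESeq2, 4 with DESeq2 without KO replicate 3, and 0 to 2 with 1 library left out. At 1 month 269 genes were called, against 561 with library size alone, 1276 with no filter, 781 with DESeq2, 0 with no batch covariate, 1474 in batch 2 alone and 45 to 1522 with 1 library left out. Members called there were 1, against 2 with library size alone, 4 with no filter, 4 with DESeq2, 0 with no batch covariate and 0 to 1 with 1 library left out. For the difference between the times 0 genes were called, against 137 with no filter, 917 with DESeq2 and 0 to 440 with 1 library left out, and 0 members, against 2 with DESeq2 and 0 to 2. Taken as mean log2 CPM, the smooth muscle and PDGF receptor classes differed at 1 week by 1.27 and 1.29, against 2.15 and 2.66 for the sums. Relative to the urothelial list and without WT replicate 3 (chosen after seeing the data), the smooth muscle class at 1 month was 1.33 against -0.70. With 1 library left out, the class sums ran from -1.38 to 0.93 for smooth muscle and 0.24 to 0.87 for the PDGF receptors at 1 month.

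Directions that turned were those of values that did not pass. At 1 month Acta2 was -0.52 and Myh11 -0.32 with no batch covariate, Cnn1 1.09, Des 1.41 and Pdgfra -0.10 in batch 2 alone, and Des 0.02 with DESeq2. With 1 library left out, Acta2 ran from -0.70 to 1.39, Myh11 from -0.65 to 1.07, Cnn1 from -2.0 to 1.08, Des from -1.51 to 1.40 and Pdgfra from -0.11 to 0.54; at 1 week Des ran from -1.55 to 0.04, Pdgfrb from -0.32 to 0.61 and Kdr from -0.16 to 0.54. For the difference between the times Des was -0.66 and Pecam1 -0.01 with no batch covariate, and Pecam1 -0.06 with size factors as in DESeq2 and with DESeq2; with 1 library left out Cnn1 ran from -2.97 to 0.29, Des from -0.17 to 2.55 and Pecam1 from -0.38 to 0.47. The cause was not tested. Leaving out 1 library of batch 3 leaves batch 2 to carry the comparison at 1 month. Depth limits Des in KO replicate 3 at 1 week, at 6 counts.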
